A study of Mus musculus with 6 samples.

Results

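Genes that encode the exon junction complex and its arginine/serine-rich (SR-related) partners were followed in activated mouse CD4 T cells, as the 10 rows of a gene count table whose symbol was Magoh, Magohb, Rbm8a, Eif4a3, Casc3, Acin1, Rnps1, Pnn, Srrm1 or Srrm2, of 24047 rows in all. RNA was sequenced from naive CD4 T cells of the spleens of 7-week-old mice of strain B6.129, as 3 wild-type (WT) libraries and 3 that carry the label of a conditional knockout of Srsf1, a splicing factor gene (Srsf1-cKO, genotype Srsf1-flox/flox dLck.Cre), from 3 mice of each genotype. dLck.Cre is a recombinase under the distal promoter of Lck, which is active in mature T cells. The sources used here do not give whether the WT mice carried the Cre or a floxed allele. Cells of both groups were activated for 72 h with anti-CD3 (0.5 µg/mL) and anti-CD28 (1 µg/mL) antibodies. They were then restimulated for 4 h with PMA (100 ng/mL) and ionomycin (1 µM), which bypass the T cell receptor.

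The exon junction complex is a protein mark that the spliceosome leaves on mRNA just upstream of each joined exon boundary. Its core is the clamp of the RNA helicase EIF4A3 closed by the heterodimer of MAGOH (or its paralog MAGOHB) and RBM8A (Y14), with CASC3 (MLN51, also called Barentsz) bound to the helicase. RNPS1, with SAP18, joins either acinus (ACIN1), forming the ASAP complex, or pinin (PNN), forming the PSAP complex, and both bind the core. SRRM1 and SRRM2 are large RS-rich proteins of the spliceosome and of nuclear speckles. The complex marks an mRNA for export, for translation and for nonsense-mediated decay. SR proteins such as SRSF1 are found beside it on spliced mRNA.

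The libraries held 7781283 to 10184268 gene counts. Levels below are CPM, read counts divided by TMM-scaled library sizes, which correct for differences in depth and composition, with SD over n = 3 libraries. A gene is said to have risen or fallen where edgeR's quasi-likelihood test, fitted on all 10454 genes that passed its low-count filter, gave a Benjamini-Hochberg adjusted p under 0.05. As a check of the labels, Srsf1 mRNA had 4889, 3520 and 3679 reads in WT, and with 4839, 4911 and 5022 reads it was not lower in the knockout group (495 ± 42.1 and 514 ± 39.1 CPM, edgeR adjusted p = 0.780). A count over the whole gene may miss the loss of only a part of it, so this check does not decide whether Srsf1 was deleted. The labels serve here as names only, and each direction given is Srsf1-cKO-labelled against WT. The T cell markers Cd3d, Cd3e, Cd3g, Cd4, Cd28 and Lck summed to 1521 to 1863 CPM in WT and 1420 to 1933 CPM in the Srsf1-cKO-labelled libraries. Markers of other cells summed to more there than in WT without overlap, with 5 B cell genes at 7.98 to 19.6 against 1.19 to 6.50 CPM, 5 myeloid genes at 7.46 to 21.2 against 0.660 to 4.64 CPM, 5 antigen presentation genes at 106 to 128 against 60.6 to 81.6 CPM and 3 NK genes at 3.89 to 13.9 against 0.528 to 1.30 CPM. Of the antigen presentation genes, H2-Aa and Cd74 rose, while the log2 fold changes of H2-Ab1 (-0.29) and Zbtb46 (-0.62) were negative and did not pass. The NK marker Ncr1 and 5 of 6 erythroid markers had 0 counts in every library, although the authors' FPKM table lists the globin gene Hba-a1 at 0.330, 0.836 and 0.784 FPKM in the Srsf1-cKO-labelled libraries and at 0 in WT, and Hba-a2 at no more than 0.00576 FPKM and at 0, and the dendritic cell marker Itgax had 0 counts in WT. The sum of the CD8 genes Cd8a and Cd8b1 was 24.6 to 42.5 CPM in WT and 16.7 to 22.8 CPM in the Srsf1-cKO-labelled libraries. Of 4 heat shock genes, 3 fell: Hspa1a stood at 154, 126 and 4.49 CPM in WT replicates 1 to 3, against 1.30, 0.893 and 1.13 CPM (log2 fold change -6.40, edgeR adjusted p = 0.0109). Hspa1b stood at 226, 206 and 12.01 CPM, against 2.70, 2.12 and 1.502 CPM (-6.14, edgeR adjusted p = 0.00862), and Dnajb1 at 90.1, 93.3 and 61.5 CPM, against 50.5, 48.4 and 51.3 CPM (-0.71, edgeR adjusted p = 0.0271). WT replicates 1 and 2 thus stood far above WT replicate 3 in Hspa1a and Hspa1b. The most counted of the 4, Hsph1, ranged from 331 to 462 CPM in WT and from 358 to 502 CPM in the other group, so that the sums of all 4 overlapped (514 to 933 and 412 to 553 CPM). Splices per 100 uniquely mapped reads were 27.9 to 30.5 in WT and 26.9 to 27.1 in the other group. The part of any of these in the results was not tested. In bulk RNA, fewer cells of a type and less RNA per cell cannot be told apart.

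The promoters of 3 core genes and 2 of the 4 listed starts of Acin1 are shown, because these core genes stood higher in the same libraries and the reads per FPKM of Acin1, given further on, depend on transcript length. Each runs 5′ to 3′ on the strand of the gene over 300 bases around a RefSeq start, most of them upstream (GRCm38.p6, a later build than the mm9 used upstream). Capitals mark a match to 1 of 7 searched motifs, taken on both strands: the core of ETS factor sites (CCGGAAG), the E-box bound by USF and MYC proteins (CACGTG), the box bound by NF-Y (CCAAT), the GC box bound by SP1 (GGGCGG), the site of NRF1 (GCATGCGC), the site of YY1 (ATGGCGG) and the TATA box (TATAAA).
Magoh, chr4:107879505-107879804, plus strand: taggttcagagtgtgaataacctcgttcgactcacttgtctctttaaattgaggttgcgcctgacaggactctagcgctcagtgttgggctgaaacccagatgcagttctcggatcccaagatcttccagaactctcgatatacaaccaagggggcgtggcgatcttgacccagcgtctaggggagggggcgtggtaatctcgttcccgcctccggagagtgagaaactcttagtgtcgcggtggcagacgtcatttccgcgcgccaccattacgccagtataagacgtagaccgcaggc
Magohb, chr6:131293195-131293494, minus strand: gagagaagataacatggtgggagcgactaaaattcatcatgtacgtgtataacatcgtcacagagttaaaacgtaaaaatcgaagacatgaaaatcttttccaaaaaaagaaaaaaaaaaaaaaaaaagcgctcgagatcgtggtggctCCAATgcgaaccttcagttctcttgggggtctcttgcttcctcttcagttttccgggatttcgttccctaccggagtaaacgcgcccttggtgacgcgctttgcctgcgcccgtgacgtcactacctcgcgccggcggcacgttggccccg
Eif4a3, chr11:119299994-119300293, minus strand: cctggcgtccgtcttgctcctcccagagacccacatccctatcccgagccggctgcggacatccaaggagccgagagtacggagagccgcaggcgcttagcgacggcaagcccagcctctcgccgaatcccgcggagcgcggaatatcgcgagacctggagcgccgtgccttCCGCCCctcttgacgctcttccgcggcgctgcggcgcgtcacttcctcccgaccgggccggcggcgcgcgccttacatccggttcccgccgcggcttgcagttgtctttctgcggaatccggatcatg
Acin1 upstream start, chr14:54686882-54687181, minus strand: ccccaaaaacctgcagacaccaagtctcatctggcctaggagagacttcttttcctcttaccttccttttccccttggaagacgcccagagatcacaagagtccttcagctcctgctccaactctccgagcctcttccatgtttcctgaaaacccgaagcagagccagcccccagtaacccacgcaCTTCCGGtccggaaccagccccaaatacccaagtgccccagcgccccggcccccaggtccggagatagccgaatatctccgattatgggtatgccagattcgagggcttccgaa
Acin1 downstream start, chr14:54653636-54653935, minus strand: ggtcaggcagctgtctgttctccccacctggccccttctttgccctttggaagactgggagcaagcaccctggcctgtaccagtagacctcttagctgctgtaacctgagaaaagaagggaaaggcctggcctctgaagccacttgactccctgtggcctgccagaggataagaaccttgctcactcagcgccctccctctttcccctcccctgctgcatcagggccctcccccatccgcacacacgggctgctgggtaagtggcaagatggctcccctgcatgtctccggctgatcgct
The table of RefSeq promoters held 7 of the 10 genes (Rbm8a, Casc3 and Rnps1 had no entry). The Magoh window held none of the 7 motifs, that of Magohb held CCAAT (present in 37.4% of 32851 promoters of the same length) and that of Eif4a3 a GC box (35.7%). Of the Acin1 windows, that of the upstream start held the ETS core (8.86% of promoters) and that of the downstream start none. Among members whose windows are not printed, Pnn also held the ETS core and CCAAT. The Srrm1 window held CCAAT, the GC box and the NRF1 site, and those of Srrm2 held none of the motifs. These matches describe letters and not binding. The Magoh, Magohb and Eif4a3 windows held 22, 25 and 42 CpG dinucleotides and the printed Acin1 windows 13 and 5, against a median of 7 over all promoters. High counts were not limited to the printed core genes: Pnn held 30, Srrm1 40, and the Srrm2 windows 30 and 33.

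Of the core genes, Magoh rose, and Magohb, Rbm8a and Eif4a3 stood higher in all 3 Srsf1-cKO-labelled libraries without passing the test. Of the partners, Acin1 fell and the other 4 did not pass. In all, 1 of 10 genes rose (8.9% of all genes tested did) and 1 fell (9.5%), so the count of calls was near the background of 18.4% in either direction. The CPM values of the groups did not overlap for 6 of the 10 genes, of which 4 were higher and 2 lower, against 39.4% of all genes tested (19.9% higher and 19.5% lower). The 4 higher ones were all core genes, and the 2 lower ones were the partners Acin1 and Rnps1. The median log2 fold change was -0.08 over the 10 genes and 0.01 over all genes tested.

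**Figure D1:**
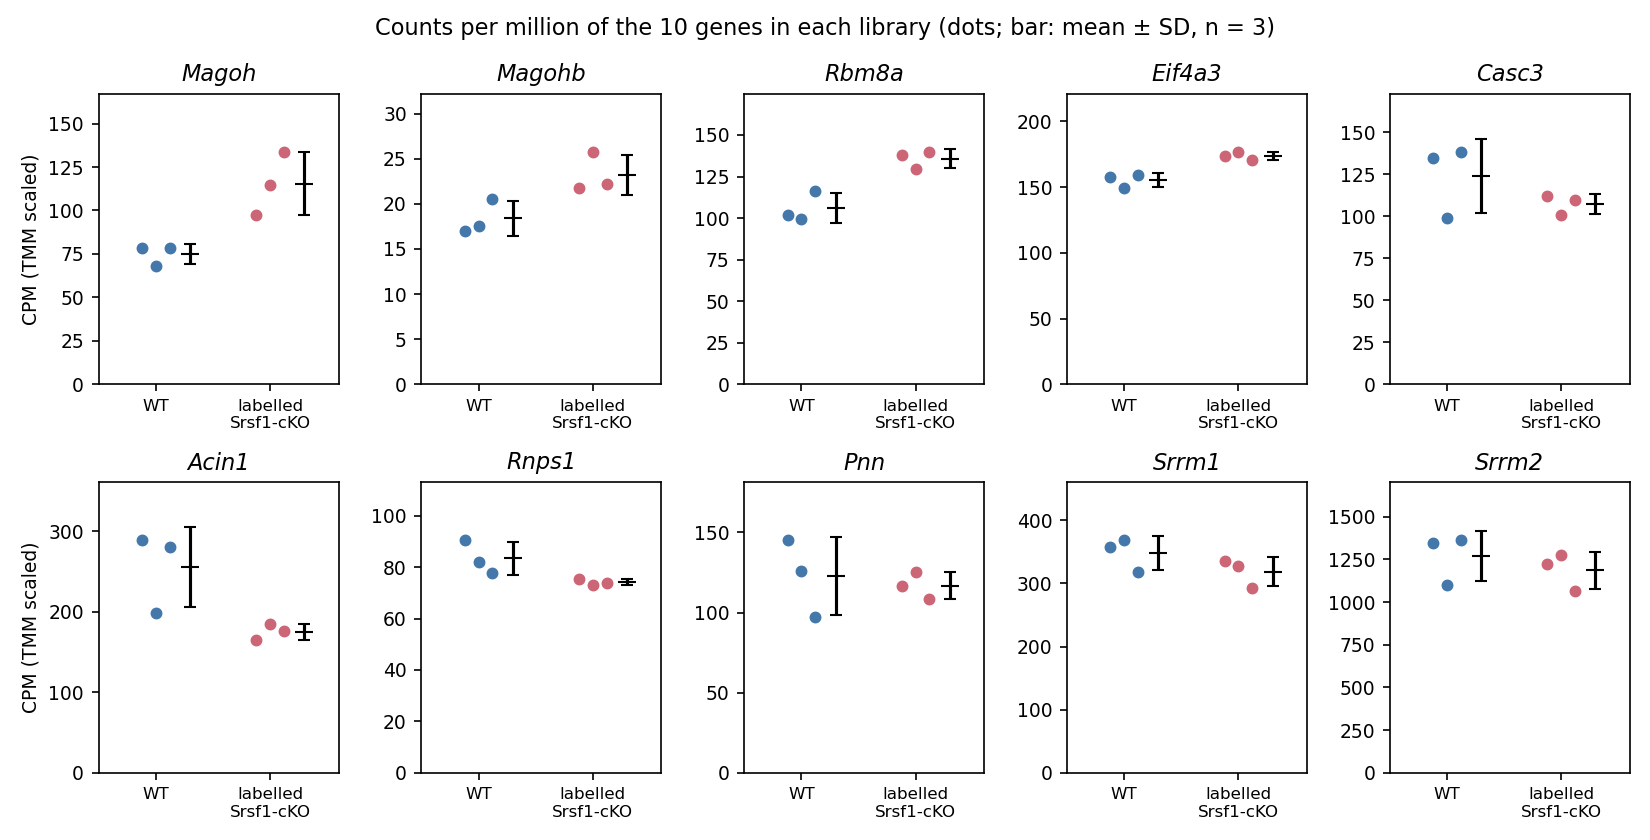
CPM of each of the 10 genes (vertical axes from 0, each panel with its own scale) in the 3 WT libraries and the 3 Srsf1-cKO-labelled libraries, as dots, with the mean ± SD as a bar. Magoh, Magohb, Rbm8a and Eif4a3 lie higher in every Srsf1-cKO-labelled library than in any WT library, and Acin1 and Rnps1 lie lower.

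Magoh, which encodes the main form of the MAGOH subunit, showed the largest difference among the core genes. It stood at 78.2, 68.0 and 78.3 CPM in WT replicates 1 to 3 and at 97.5, 115 and 134 CPM in Srsf1-cKO replicates 1 to 3. The lowest Srsf1-cKO-labelled library was thus above the highest WT library. It rose from 74.8 ± 5.88 to 115 ± 18.2 CPM, a log2 fold change of 0.62 (SE 0.15, 95% confidence interval 0.29 to 0.96, edgeR adjusted p = 0.0246), or 1.54-fold. Without 1 library its log2 fold change lay between 0.50 and 0.73, and the call was lost without WT replicate 1 (edgeR adjusted p = 0.0906), WT replicate 2 (0.0527), Srsf1-cKO replicate 2 (0.0959) or Srsf1-cKO replicate 3 (0.0535).

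Magohb encodes the paralog that can take MAGOH's place in the heterodimer. Its values were 17.02, 17.6 and 20.6 CPM in WT and 21.7, 25.8 and 22.2 CPM in the Srsf1-cKO-labelled libraries. The groups did not overlap, but the gap between WT replicate 3 and Srsf1-cKO replicate 1 was small, and the gene did not pass (log2 fold change 0.34, SE 0.17, edgeR adjusted p = 0.184). Among the settings tried, Magohb passed only by limma-voom with sample weights (limma-voom adjusted p = 0.0281), which called 41.7% of all genes tested. The longest run of bases that the coding transcripts of Magoh and Magohb have in common is 17 bases, below the read length of 75, so reads of the paralogs are not shared between them. Of the 75-base stretches of Magohb, 36.9% also occur in another annotated gene (Gm44958), and for Magoh the share is 0%. The counts of Magohb, and its part of the paralogs' reads given next, are thus uncertain. Of the reads of both paralogs, Magohb took 17.9%, 20.5% and 20.8% in WT and 18.2%, 18.3% and 14.2% in the Srsf1-cKO-labelled libraries. These ranges overlapped, and the difference of -2.82 percentage points did not pass (exact two-sided permutation p = 0.3, 0.450 adjusted over 3 shares, where the smallest possible p is 0.1).

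Rbm8a encodes Y14, the partner of MAGOH in the heterodimer. It stood at 102, 99.4 and 116 CPM in WT and at 138, 129 and 140 CPM in the Srsf1-cKO-labelled libraries. The groups did not overlap, with a log2 fold change of 0.36 (SE 0.12, 95% confidence interval 0.08 to 0.63), but the gene did not pass on counts (edgeR adjusted p = 0.0696). It did pass under library-size scaling (edgeR adjusted p = 0.0328) and by limma-voom with sample weights (limma-voom adjusted p = 0.0135). Over all 15 settings tried the adjusted p lay between 0.0135 and 0.227. Eif4a3, the gene of the helicase clamp, stood at 158, 149 and 159 CPM in WT and 173, 177 and 170 CPM in the Srsf1-cKO-labelled libraries. Its difference was small (155 ± 5.32 and 174 ± 3.32 CPM, log2 fold change 0.16, SE 0.11, 95% confidence interval -0.09 to 0.41, edgeR adjusted p = 0.332), although the groups did not overlap.

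Casc3, whose product stabilizes the closed clamp, had a difference of the opposite sign to the other core genes. Its values were 135, 99.0 and 139 CPM in WT and 112, 101 and 110 CPM in the Srsf1-cKO-labelled libraries. WT replicate 2 was the lowest of all 6 libraries, so the groups overlapped (log2 fold change -0.21, SE 0.15, edgeR adjusted p = 0.365). The difference in response between Casc3 and the other core genes was not tested.

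**Figure D2:**
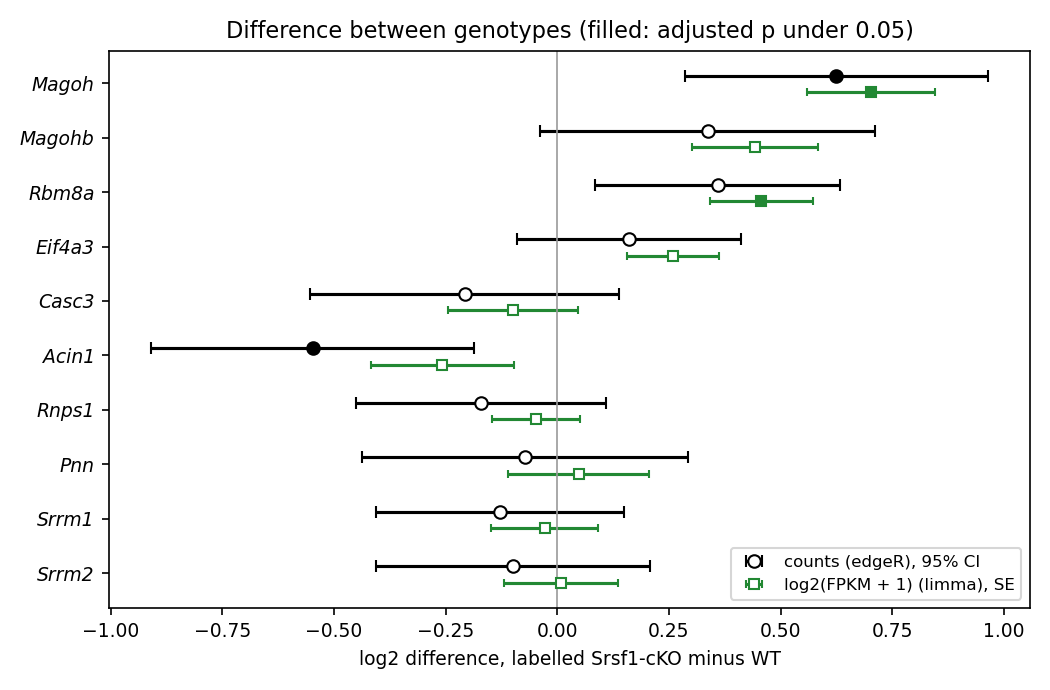
Log2 difference of each gene, Srsf1-cKO-labelled libraries minus WT, from counts (circles, edgeR, with 95% confidence interval) and from log2(FPKM + 1) (squares, limma, with SE); filled symbols have an adjusted p under 0.05. Magoh is filled in both, Acin1 on counts and Rbm8a on FPKM.

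Acin1, the gene of acinus and the scaffold of ASAP, was the partner that fell. It stood at 289, 199 and 281 CPM in WT and at 165, 184 and 176 CPM in the Srsf1-cKO-labelled libraries. The groups did not overlap, but WT replicate 2 lay much nearer to the Srsf1-cKO-labelled libraries than the other WT libraries did. Acin1 fell from 256 ± 49.9 to 175 ± 9.86 CPM (log2 fold change -0.55, SE 0.16, 95% confidence interval -0.91 to -0.19, edgeR adjusted p = 0.0446). The call was lost under library-size scaling (edgeR adjusted p = 0.0771) and without any 1 library except WT replicate 2, with an adjusted p of 0.156 and 0.0702 without WT replicates 1 and 3, and 0.123, 0.125 and 0.0834 without Srsf1-cKO replicates 1, 2 and 3. Without WT replicate 2 the log2 fold change was -0.71 (edgeR adjusted p = 0.0143).

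Pnn encodes pinin, the scaffold of PSAP. It stood at 145, 126 and 97.0 CPM in WT and at 117, 125 and 109 CPM in the Srsf1-cKO-labelled libraries, which lay inside the WT range (log2 fold change -0.07, SE 0.16, 95% confidence interval -0.44 to 0.29, edgeR adjusted p = 0.782). The sign of this small difference turned under library-size scaling (0.03) and without WT replicate 1 (0.05). Pnn and Acin1 encode alternative scaffolds, and Pnn took 33.4%, 38.8% and 25.7% of the reads of both in WT and 41.5%, 40.4% and 38.1% in the Srsf1-cKO-labelled libraries. The 95% Clopper-Pearson interval was 24.1% to 27.3% in WT replicate 3, the lowest, and 36.3% to 39.8% in Srsf1-cKO replicate 3, and these cover counting error only. The difference of 7.35 percentage points did not pass (exact two-sided permutation p = 0.2, 0.450 adjusted over 3 shares), and WT replicate 2 lay above Srsf1-cKO replicate 3. Without WT replicate 3 the difference was 3.88 percentage points.

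Rnps1 encodes the RNA-binding subunit common to ASAP and PSAP. Its values were 90.5, 82.2 and 77.6 CPM in WT and 75.4, 73.0 and 74.0 CPM in the Srsf1-cKO-labelled libraries, without overlap. The difference was small and did not pass (83.4 ± 6.56 and 74.1 ± 1.22 CPM, log2 fold change -0.17, SE 0.12, edgeR adjusted p = 0.355). Of the 75-base stretches of its coding transcripts, 22.3% also occur in another annotated gene (Gm9825), so its counts are uncertain.

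Srrm1 and Srrm2 encode RS-rich matrix proteins of the spliceosome, known as SRm160 and SRm300. Srrm2 was the most counted of the 10 genes, with 1344, 1102 and 1363 CPM in WT and 1221, 1274 and 1064 CPM in the Srsf1-cKO-labelled libraries. Srrm1 stood at 358, 368 and 319 CPM in WT and at 336, 327 and 292 CPM in the Srsf1-cKO-labelled libraries. Both overlapped between the groups (log2 fold changes -0.10, SE 0.14, 95% confidence interval -0.40 to 0.21, and -0.13, SE 0.12, 95% confidence interval -0.41 to 0.15, edgeR adjusted p = 0.637 and 0.483), and the small difference of Srrm2 turned positive under library-size scaling (0.01). Srrm1 took 21.0%, 25.1% and 18.9% of the reads of the pair in WT and 21.6%, 20.4% and 21.6% in the Srsf1-cKO-labelled libraries. The means of this share were 21.7% ± 3.11 and 21.2% ± 0.669 (exact two-sided permutation p = 0.9), and the difference of -0.48 percentage points turned to 1.21 without WT replicate 2.

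**Figure D3:**
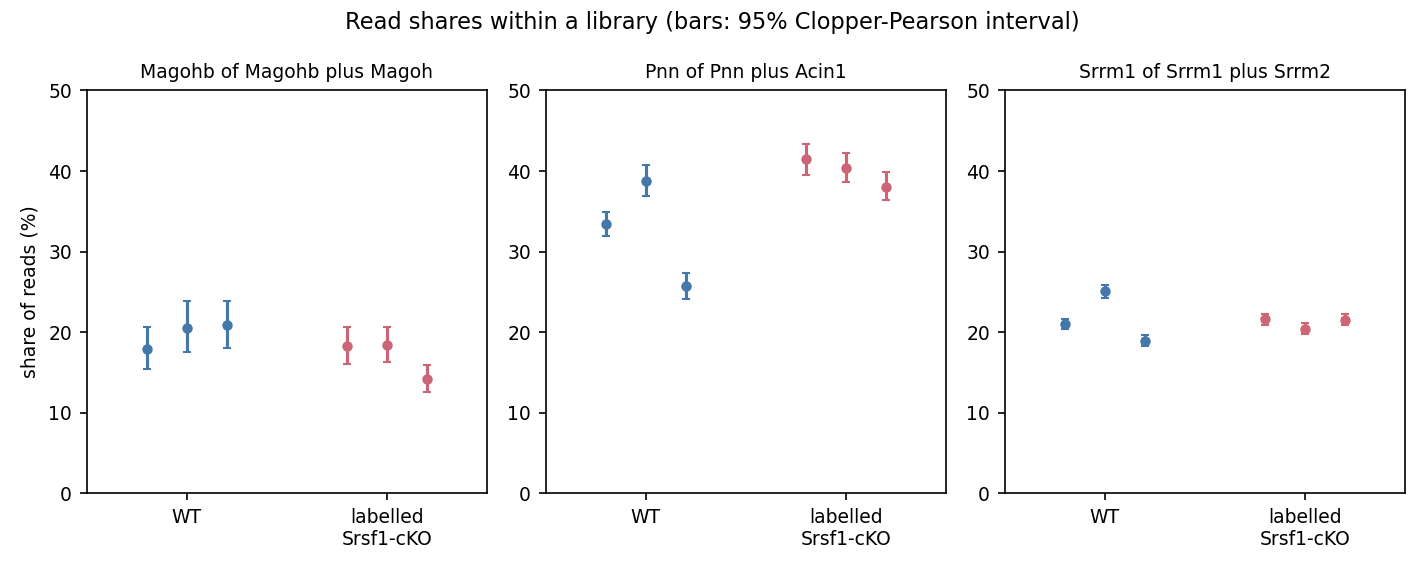
Share of the reads of a gene pair taken by its first gene (percent, axis from 0) in each library, with the 95% Clopper-Pearson interval of counting error. The share of Pnn is lowest in WT replicate 3 at 25.7%, and the groups overlap in all 3 pairs.

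Levels were compared between genes only per length, on the authors' FPKM (reads scaled by transcript length and library depth). In WT the order of mean FPKM was Magoh (123 ± 8.52), Rnps1 (112 ± 1.89), Srrm2 (103 ± 9.78), Eif4a3 (97.0 ± 3.52), Srrm1 (66.7 ± 5.85), Acin1 (49.6 ± 8.95), Rbm8a (29.6 ± 2.39), Pnn (25.5 ± 4.57), Casc3 (23.8 ± 3.79) and Magohb (22.1 ± 2.91). Neighbours in this order whose 3 values overlapped were Rnps1 and Srrm2, Srrm2 and Eif4a3, and each step from Rbm8a down to Magohb. Thus the 2 obligate partners of the heterodimer, Magoh and Rbm8a, had unlike mRNA levels on this scale. Srrm2, the most counted gene, came after Magoh in FPKM. The order holds for FPKM only: WT counts averaged 1270 CPM for Srrm2 (longest coding transcript 8864 bases) and 74.8 CPM for Magoh (692 bases). Divided by these lengths, the WT counts would place Srrm2 above Magoh. The place of Rnps1 is also uncertain, since its reads were fewer than its FPKM implies, as given further on. In the Srsf1-cKO-labelled libraries the order was Magoh (203 ± 33.4), Eif4a3 (116 ± 4.04), Rnps1 (108 ± 0.874), Srrm2 (104 ± 10.4), Srrm1 (65.4 ± 4.70), Acin1 (41.0 ± 3.82), Rbm8a (41.0 ± 1.06), Magohb (30.3 ± 3.13), Pnn (26.2 ± 2.16) and Casc3 (21.96 ± 1.03). There Eif4a3 stood above Rnps1 in all 3 libraries, while Acin1 and Rbm8a could not be separated, and neither could Rnps1 and Srrm2 or Magohb and Pnn.

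**Figure D4:**
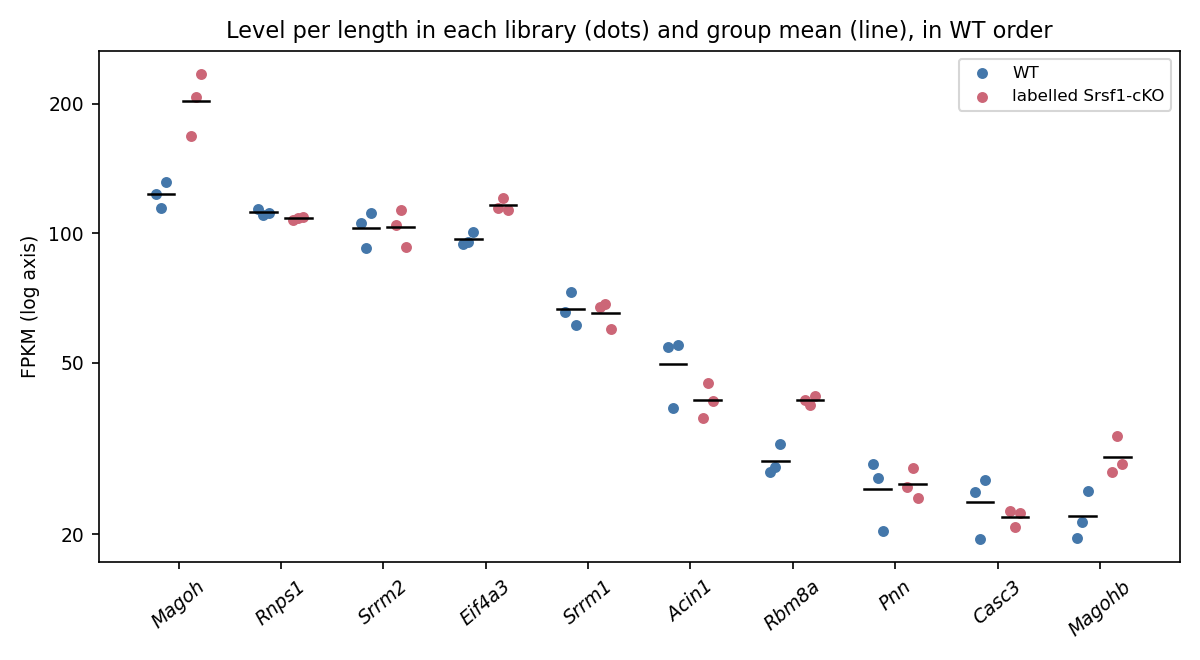
FPKM of the 10 genes (log axis) in each library, as dots, with group means as lines, in the order of the WT means. Magoh is highest in both groups, at 123 and 203 FPKM on average, and Rbm8a moves from 29.6 to 41.0 FPKM, level with Acin1.

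On log2(FPKM + 1), tested with limma over 9617 genes, Magoh (0.70, limma adjusted p = 0.0189) and Rbm8a (0.46, limma adjusted p = 0.0321) rose and none of the 10 fell, while 18.7% of all genes passed on this scale (12.3% rose and 6.39% fell). The median over all genes was 0.10 there, and it was not subtracted from the differences given. Magohb (0.44, limma adjusted p = 0.0636), Eif4a3 (0.26, 0.110) and Acin1 (-0.26, 0.281) did not pass. The FPKM calls of Magoh and Rbm8a were not stable to single libraries. Of the 10 genes, 0 passed when WT replicate 1 or Srsf1-cKO replicate 2 was left out. When it was WT replicate 2 or Srsf1-cKO replicate 1 or 3, 1 passed, and 3 passed without WT replicate 3. The share of all genes that passed on FPKM in these settings was not computed. On counts it went from 18.4% to 1.84% without WT replicate 1 and to 2.2% without Srsf1-cKO replicate 2. The losses thus cannot be read as particular to these genes.

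For Acin1 the tables disagreed more than for any other of the 10 genes, so the deposited reads per deposited FPKM unit were compared. This ratio depends on the transcript length behind the FPKM estimate and also on which reads each table counted, so it is no measure of length alone. Libraries were brought to 1 scale by the median ratio over genes and the mean library total, a step chosen after seeing the data, and the ratio is written in kilobases. For Acin1 it was 4.89, 5.01 and 4.93 kb in WT and 4.49, 4.33 and 4.44 kb in the Srsf1-cKO-labelled libraries, so that every one of the latter lay below every WT library. The means were 4.95 ± 0.0594 and 4.42 ± 0.0814 kb, a change of -10.7%. The ratio restates, per library, the disagreement for which Acin1 was picked, so it is a description with no test. It was lower without overlap for 6.52% of 10392 genes, and it dropped by as much or more in 1.72% of them. For the other 9 genes the mean changed by at most 1.37% and the groups overlapped.

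Acin1 is annotated (GENCODE M21) with coding transcripts of 696 to 4735 bases. The upstream start printed above lies at the 5′ end of the long ones (4735 and 4048 bases), and the downstream start at that of shorter ones (2494 and 696 bases). The gene-level tables do not resolve isoforms or starts, so whether the groups differed in transcripts was not tested. Of the 75-base stretches of Acin1, 6.63% also occur in other annotated genes, and the shares are larger for Eif4a3 (12.4%) and Casc3 (10.8%). The ratio also bears on Rnps1, at 0.714 kb in WT although its coding transcripts measure 1646 to 1920 bases: fewer reads were counted for it than its FPKM value and length imply. For Pnn the ratio in WT was 4.603 kb, above its single coding transcript of 3485 bases. Pnn was not alone in this: the same held for Srrm2 (11.8 kb, longest 8864 bases), Srrm1 (5.01 kb, 3797 bases), Casc3, Rbm8a, Acin1 and Eif4a3. For Magoh, Magohb and Rnps1 the ratio was below the longest coding transcript. The kilobase values are thus not to be read as transcript lengths, that of Acin1 included.

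**Figure D5:**
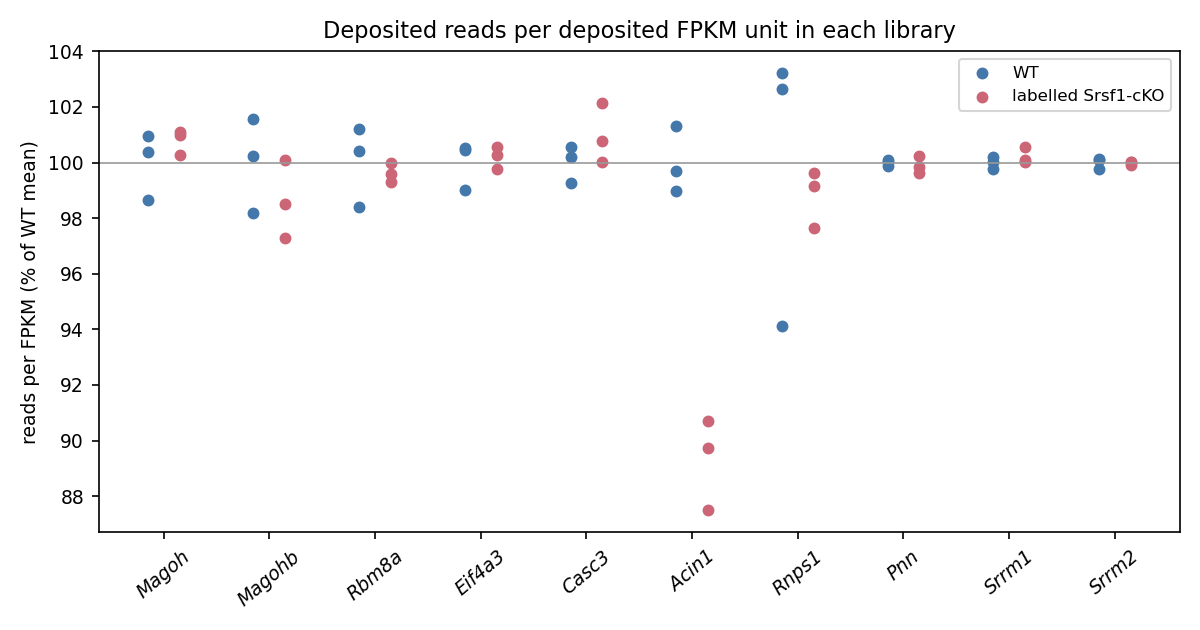
Reads per FPKM of each gene in each library, in percent of the gene's WT mean (the axis does not start at 0). The Srsf1-cKO-labelled libraries lie below every WT library for Acin1 and overlap them for the other 9 genes.

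Of 22 tested genes whose products load, bind or pass on the exon junction complex (the TREX export complex, cap-binding proteins and assembly or decay adaptors), 1 rose and 1 fell, with a median log2 fold change of -0.05. Of all genes tested, 8.9% rose and 9.5% fell. Ncbp2, the gene of the small subunit of the nuclear cap-binding complex, rose from 20.8 ± 3.45 to 55.8 ± 13.3 CPM (24.4, 20.6 and 17.6 in WT, 63.2, 63.6 and 40.5 in the Srsf1-cKO-labelled libraries; log2 fold change 1.42, SE 0.22, edgeR adjusted p = 0.00761). It passed in all 15 settings tried, including without each single library, with an adjusted p of at most 0.0442. Upf3b, the gene of the adaptor that joins the complex to nonsense-mediated decay, fell from 22.3 ± 2.39 to 13.6 ± 1.61 CPM (log2 fold change -0.72, SE 0.18, edgeR adjusted p = 0.0271). Upf3b did not pass without WT replicate 1 (edgeR adjusted p = 0.0949), Srsf1-cKO replicate 1 (0.0922) or Srsf1-cKO replicate 2 (0.101).

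Sap18, the gene of the third subunit of ASAP and PSAP, had a log2 fold change of 0.65 (edgeR adjusted p = 0.0627) at only 7.92 ± 1.13 and 12.4 ± 1.69 CPM, and 13.4% of its 75-base stretches occur in other annotated genes, mostly Sap18b. Of the TREX genes, Thoc7 (log2 fold change 0.39, edgeR adjusted p = 0.0644) and the list's most counted gene, Thoc2 (-0.32, 0.131), did not pass on counts. On log2(FPKM + 1), Thoc7 did pass (0.50, limma adjusted p = 0.0303). On that scale 2 of the 22 genes rose and 1 fell, while 12.3% of all genes rose and 6.39% fell. Leaving out 1 library (WT replicate 1, or Srsf1-cKO replicate 1 or 2) left this list with 1 call by edgeR. Of all genes tested, 1.84%, 10.6% and 2.2% were called in these settings, against 18.4% with all libraries.

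Among 30 tested genes of other RS-rich proteins 2 rose and 2 fell, beside 8.9% and 9.5% of all genes tested, with a median log2 fold change of -0.05. Arglu1, whose product is a splicing and transcription modulator, rose from 34.2 ± 6.56 to 103 ± 26.6 CPM (36.7, 26.8 and 39.2 in WT, 108, 126 and 73.5 in the Srsf1-cKO-labelled libraries), a log2 fold change of 1.58 (SE 0.23, edgeR adjusted p = 0.00667). It passed in all 15 settings, with an adjusted p of at most 0.0454. Zranb2, the gene of a zinc finger splicing protein, rose from 126 ± 31.9 to 246 ± 75.5 CPM (edgeR adjusted p = 0.0350), and its Srsf1-cKO replicate 3 (161 CPM) lay just above its WT replicate 2 (158 CPM). Thrap3, the gene of a protein found with spliced mRNA, fell from 234 ± 35.8 to 141 ± 16.3 CPM (edgeR adjusted p = 0.0155), though 18.8% of its 75-base stretches are shared with other genes. Prpf38b fell from 252 ± 29.3 to 162 ± 34.2 CPM (edgeR adjusted p = 0.0385). Son, the most counted gene of the list (by CPM, not per length) and a scaffold of nuclear speckles like SRRM2, stood at 784 ± 117 and 644 ± 27.6 CPM (edgeR adjusted p = 0.181). Rbm23 of this list was not analysed here.

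Without single libraries these calls changed as well. Thrap3 did not pass when WT replicate 1 (edgeR adjusted p = 0.0635), Srsf1-cKO replicate 1 (0.0521) or Srsf1-cKO replicate 2 (0.0547) was left out. Zranb2 was lost without WT replicate 1 (0.131) or 3 (0.0611) or Srsf1-cKO replicate 1 (0.0959) or 2 (0.118). Prpf38b was lost without WT replicate 1 (0.146), Srsf1-cKO replicate 2 (0.101) or Srsf1-cKO replicate 3 (0.0608) and under library-size scaling (0.0552). Leaving out WT replicate 1 or Srsf1-cKO replicate 2 left 1 call in the list, leaving out Srsf1-cKO replicate 1 left 2, and leaving out WT replicate 2 gave 6. Of all genes tested, 1.84%, 2.2%, 10.6% and 18.7% were called in these settings, in the same order, against 18.4% with all libraries. The losses were thus not particular to this list.

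The genes whose log2 CPM over the 6 libraries was most like that of a member were sought for Magoh, Eif4a3 and Srrm2 among 8023 well-expressed genes (average log2 CPM no lower than 3). For Magoh they were Tm9sf1, Nsmaf and Etfb (rounded Pearson r 0.996 to 0.999), and for Eif4a3 Ubox5, Polr1e and Pdxk (0.994 to 0.996). For Srrm2 they were Prpf4b (0.985), Hs3st3b1 and Rnf146 (both 0.978). Prpf4b, a splicing kinase, is in the list of RS-rich proteins. These are descriptions over few libraries that share the genotype contrast.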

How the data were processed

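RNA-seq libraries of 3 WT and 3 Srsf1-cKO samples were analysed from tables that the authors deposited; libraries were grouped by their titles. Per the submitters' processing notes, reads were mapped with STAR to mm9 and processed with Cufflinks, and the file header of the alignment report names STAR 2.4.2a. The deposited count table holds raw reads per gene, and the authors' second table holds FPKM values, a unit read from the values since its name calls them counts. The annotation, the counting program and the use of strand are not stated in any source used here, and overlapping genes may share reads. Library depth was 7781283 to 10184268 gene counts, which sets the counting intervals of shares.

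The test on counts was that of edgeR 4.0.16 under R 4.3.3 (filterByExpr, TMM, quasi-likelihood, genotype only, two-sided, Benjamini-Hochberg over 10454 genes), and log2(FPKM + 1) with limma 3.58.1 (trend, genes at 1 FPKM or more in at least 3 libraries). SE is the log2 fold change over the root of the F statistic. Shares of reads were compared by exact permutation over libraries. Tried as alternatives were DESeq2 1.42.0, limma-voom with sample weights, the scalings RLE, upper quartile and library size, 2 filters, leaving out each library or Rn45s, and a replicate block. The scripts were tested on simulated data. Shared 75-base stretches were counted against GENCODE M21 transcripts. The members and the 2 further lists were chosen with earlier results of these data known. Named genes are the 10 members, Srsf1, the 4 genes of each further list with the smallest p and its most counted gene (mean CPM), and the 3 genes most like Magoh, Eif4a3 and Srrm2.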

Additional observations from a re-analysis of the deposited data

How the results depend on the processing

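Of 150 alternative values of the 10 members' log2 fold changes, 134 kept their direction and their side of the threshold, 10 lost a call, 3 gained one and 3 changed sign. The last were Pnn under library-size scaling (0.034) and without WT replicate 1 (0.050, with a range of -0.23 to 0.050 over single libraries left out), and Srrm2 under library-size scaling (0.0054). The log2 fold change of Srsf1, 0.06, lay between -0.0047 (without WT replicate 2) and 0.12 over single libraries left out, and was 0.16 under library-size scaling. The number of called members, 2, was 4 by limma-voom with sample weights. By edgeR it was 3 at an adjusted p under 0.1 and 0 at an adjusted p under 0.01. Without single libraries it lay between 0 and 1 by edgeR and between 0 and 3 on FPKM. The cause was not tested, but over all genes the calls fell from 1923 to 195 when WT replicate 1 was left out, to 234 for Srsf1-cKO replicate 2 and to 1121 for Srsf1-cKO replicate 1, and were 4355 by limma-voom. The further lists had 4 (library-size scaling) and 9 (limma-voom) calls in place of 2 for the TREX and assembly genes, and 7 (DESeq2) and 10 (limma-voom) in place of 4 for the RS-rich genes. Without single libraries these lay between 1 and 3 and between 1 and 6. Under library-size scaling 1268 genes were higher and 709 lower, against 930 and 993. The median of all genes was 0.11 on that scale, and it was not subtracted from the changes given. The deviations of same-numbered libraries from their group means had correlations of 0.22, 0.01 and 0.27. With so few libraries and no reference for these values, they cannot decide whether the replicate number pairs samples. With it as a replicate block, 2 members, 2 TREX and assembly genes and 5 RS-rich genes were called by edgeR, 2 members on FPKM, and 2270 genes in all. The shares of Magohb and Pnn kept their sign in every setting, and that of Srrm1 lay between -1.84 and 1.21 percentage points without single libraries, positive without WT replicate 2. Pairing by number (the block) leaves the 3 differences at -2.82, 7.35 and -0.48 percentage points by arithmetic, so this setting could not change a sign. Per-gene depth limits Magohb (135 to 236 reads) most among the members.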

Other observations

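The alignment report, which the comparisons above use only for splices per 100 reads, lists splices at AT/AC ends apart. Their share of all splices was 0.0763%, 0.0753% and 0.0815% in WT, against 0.0918%, 0.0969% and 0.0923% in the Srsf1-cKO-labelled libraries, so the groups did not overlap.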
